A study of Oryza sativa Japonica Group with 15 samples.

Results

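In rice roots, 149 genes had their highest values in the plants sprayed with acibenzolar-S-methyl (ASM), without all values of the other inducers lying above mock as well. They were chosen by their measured values, from 35667 rice gene identifiers among 36747 rows. A gene was taken when its mean over the 15 libraries was at least 20 normalised counts and its lowest ASM value lay above its highest value in the other 12 libraries. Its mean log2(normalised count + 1) with ASM also had to lie at least 0.6 above mock, and the 6 values of the groups given beta-aminobutyric acid (BABA) or 2 sprays of piperonylic acid (PA2x) were not all to exceed the highest mock value. A normalised count is a gene's read count divided by 1 size factor for its library. The mean limit left 14025 identifiers, the order of the libraries 327 and the difference from mock 199, of which 50 were set aside because all their BABA and PA2x values also lay above mock.

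The libraries came from roots of rice seedlings, Oryza sativa Japonica Group of the cultivar Kitaake, with no further genotype or allele given. Seedlings were moved to single tubes 5 days after germination, kept at 28 °C with 12 h of light, and sprayed on the leaves in 0.1% Tween 20. The mock group, BABA at 3.5 mM, ASM at 250.0 µM and piperonylic acid at 300.0 µM (PA1x) were sprayed on day 13 after transplanting, whereas PA2x received 300.0 µM on days 7 and 13. All roots were harvested on day 14, 1 library held the pooled roots of 4 plants, and each of the 5 groups had 3 libraries. No mock group followed the PA2x schedule, and doses differed between compounds, so a comparison of compounds is also one of doses.

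ASM acts in place of salicylic acid, the hormone through which plants mount resistance against pathogens that feed on living tissue. In rice, salicylate signals pass through NPR1 and, largely apart from it, through the transcription factor WRKY45, and both branches end in defence genes. BABA, a nonprotein amino acid, primes defence, and piperonylic acid inhibits cinnamate 4-hydroxylase, an early enzyme of the phenylpropanoid pathway.

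The libraries held 4130194 to 9480830 reads, and 3 reads, taken as the floor of detection, correspond to 1.96 to 4.84 normalised counts. The summed level of 4 root markers was 20819 to 24146 normalised counts in mock and 13163 to 17380 with ASM, and 3 of the 4 were called lower with ASM (LSI1 and LSI2, silicon transporters, and SHR1, a regulator of root patterning). The 7 shoot markers summed to 12.7 to 323 over all libraries, with none at 0 in every library of a group, and 5 reference genes summed to 11084 to 11507 in mock and 9717 to 10194 with ASM. Whether these shifts take part in the results below was not tested. In whole roots, fewer cells of a type and less RNA per cell cannot be told apart.

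Values with ASM are a description here, because they chose the genes. The difference between ASM and mock had a median of 0.92 log2 units, with quartiles of 0.74 and 1.26 and a range of 0.60 to 5.02. It reached 1 unit in 69 genes and 2 units in 10, and stayed under 1 unit in 80. Limma called 128 of the 149 higher with ASM than with mock, where 3.28% of all 18316 genes tested were called higher. The choice of genes largely fixed that number, so it is no test of them. That number fell to 78 without ASM replicate 3 and to 81 without mock replicate 1. For all 3 ASM libraries to lie above the other 12 was found in 2.33% of the 14025 identifiers with a mean of at least 20.

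Added up, the 149 genes reached 80135 ± 2702 normalised counts with ASM (mean ± SD, n = 3) and 38155 ± 1588 in mock. BABA stood at 47163 ± 177, PA2x at 41826 ± 1180 and PA1x at 35523 ± 3134. The genes took up 1.15% to 1.26% of all reads in the ASM libraries and 0.548% to 0.625% in the mock libraries. Their single means over the 15 libraries ran from 20.2 to 7499.8 normalised counts, with a median of 114. By the sums, ASM was the high group, and every BABA and PA2x library lay over every mock library, BABA by more. The PA1x mean was the lowest of the 5, but PA1x overlapped mock. PA1x replicate 2 (38969) exceeded mock replicates 1 (36378) and 3 (38653).

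**Figure D1:**
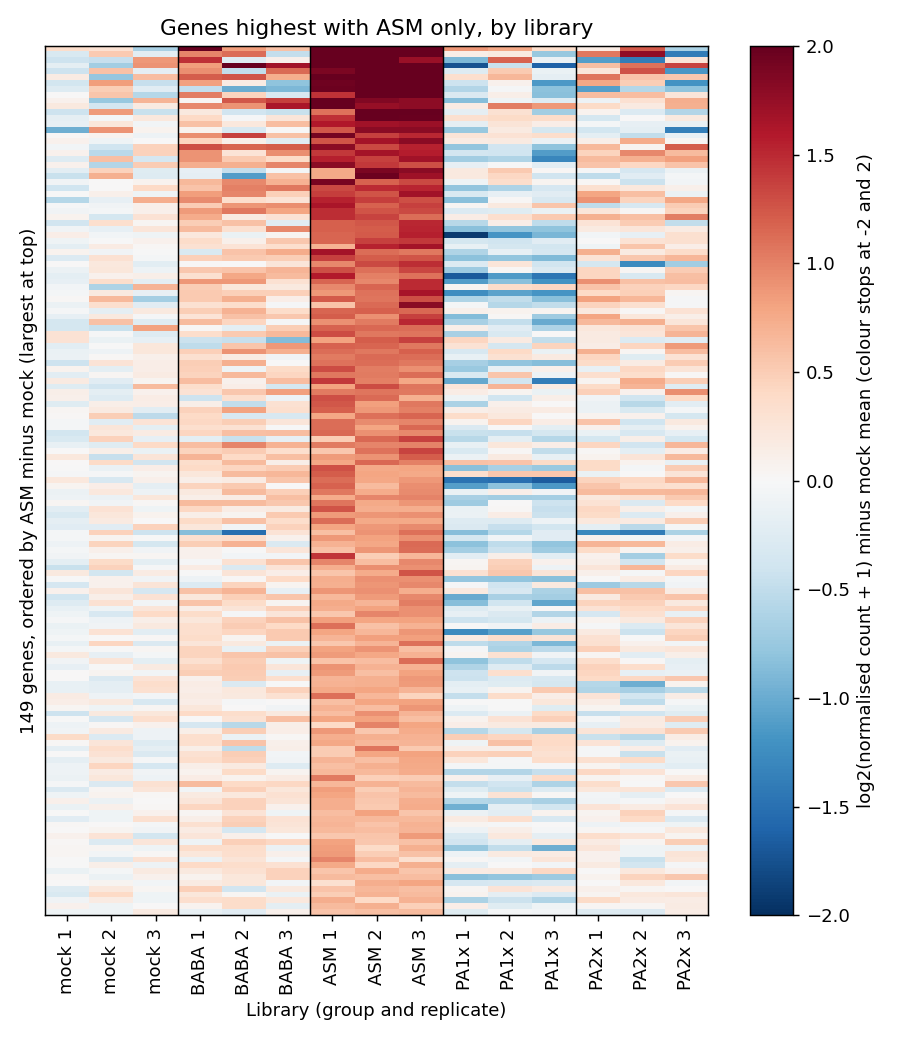
Each row is 1 of the 149 genes, ordered by its difference between ASM and mock (0.60 to 5.02 log2 units), and each column is 1 library. Colour gives log2(normalised count + 1) minus the mock mean, stopping at -2 and 2; the ASM columns are red throughout, by the choice of genes, and the darker blue cells are mostly in the PA1x columns.

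The largest difference belonged to Os10g0515900, which the RefSeq table does not annotate, like every other gene identifier named below unless a name is given. Its normalised counts in replicates 1, 2 and 3 were 81.5, 166 and 117 with ASM and 3.59, 3.47 and 1.31 in mock, against 33.9, 5.47 and 4.46 with BABA, 5.64, 5.16 and 3.62 in PA1x and 3.05, 7.43 and 1.34 in PA2x. Reads were few outside ASM, save for BABA replicate 1, and no other library came near the 3 ASM libraries. Its difference of 5.02 ± 0.61 log2 units (estimate ± SE) depends on the pseudocount of 1, so no fold is given.

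Os05g0202800 and Os12g0242100 also had as few as 3 reads in at least 1 library. Os05g0202800 had 258, 79.9 and 34.9 normalised counts with ASM, 7.19, 6.95 and 18.9 in mock, 29.0, 8.20 and 10.7 with BABA, 4.83, 23.6 and 9.05 in PA1x and 4.07, 3.18 and 12.1 in PA2x. ASM replicate 1 alone carried most of that group's level. Os12g0242100 had 105, 71.2 and 90.5 with ASM, 8.99, 6.08 and 20.2 in mock, 19.4, 57.4 and 35.7 with BABA, 2.42, 7.38 and 2.72 in PA1x and 16.3, 23.3 and 28.2 in PA2x. Here the ASM libraries lay closer together, BABA replicate 2 came next, and PA1x lay under mock except that PA1x replicate 2 exceeded mock replicate 2. The log2 differences from mock were 3.06 ± 0.70 and 2.96 ± 0.45.

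The widest gap between the lowest ASM value and the highest other value was found in Os12g0555100. It stood at 1158, 1479.7 and 1617 normalised counts with ASM, 245, 414 and 253 in mock, 211, 148 and 158 with BABA, 197, 291 and 167 in PA1x and 137, 197 and 169 in PA2x. Mock replicate 2 was the nearest library, and every BABA and PA2x library lay under all 3 mock libraries. The gap was 1.48 log2 units, and the ASM mean was 4.66 times the mock mean (log2 difference 2.25 ± 0.23).

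Os01g0508500 followed with a gap of 1.36 log2 units. Its values were 427, 374 and 422 with ASM, 67.4, 34.7 and 93.3 in mock, 140.4, 145 and 101 with BABA, 76.5, 96.6 and 53.4 in PA1x and 128, 90.2 and 88.6 in PA2x. The ASM libraries were tight, and all 3 BABA libraries lay above mock. The ratio of the ASM to the mock mean was 6.25 (log2 difference 2.73 ± 0.29).

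In Os04g0653700 the ASM libraries held 293, 366 and 608 normalised counts, mock 58.4, 135 and 54.2, BABA 134, 84.8 and 42.8, PA1x 56.4, 79.7 and 33.5 and PA2x 129, 106 and 32.2. Outside ASM the 4 groups overlapped, and the replicates of each of them differed widely. The log2 difference from mock was 2.40 ± 0.51, with a gap of 1.12. Os07g0605400, with the smallest of the 5 gaps over 1 log2 unit (1.07), had 2736, 4185 and 3922 with ASM, 878, 962 and 1153 in mock, 1307, 980.5 and 1174 with BABA, 1233, 1288 and 1274 in PA1x and 776, 992 and 1134 in PA2x. The PA1x libraries lay over all mock libraries and under BABA replicate 1, and the ASM mean was 3.62 times that of mock (1.84 ± 0.17).

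Os07g0129300 had 510.2, 1182 and 1443 normalised counts with ASM, 102, 208 and 121 in mock, 263, 97.1 and 303 with BABA, 114, 198 and 125 in PA1x and 161, 334 and 60.4 in PA2x. ASM replicate 1 was well under the other two ASM libraries, and PA2x replicate 2 was the next highest. Its log2 difference from mock was 2.79 ± 0.54. A like order of the replicates was seen in Os04g0581100, at 134, 212 and 269 with ASM, 15.3, 27.8 and 16.3 in mock, 38.7, 42.4 and 13.4 with BABA, 20.9, 22.1 and 10.9 in PA1x and 40.7, 67.9 and 6.71 in PA2x. In both genes PA2x replicate 3 was the lowest of all 15 libraries, and the difference of Os04g0581100 was 3.30 ± 0.62.

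The remaining 2 of the 10 largest differences were those of Os03g0853200 and Os02g0178100. Os03g0853200 had 47.7, 90.5 and 115 normalised counts with ASM, 17.1, 25.2 and 11.1 in mock, 35.5, 23.2 and 13.4 with BABA, 13.7, 18.4 and 9.05 in PA1x and 26.5, 26.5 and 20.1 in PA2x (2.16 ± 0.39). Os02g0178100 had 66.6, 42.4 and 40.4 with ASM, 11.7, 6.08 and 18.3 in mock, 11.3, 27.3 and 30.3 with BABA, 5.64, 10.3 and 9.05 in PA1x and 10.2, 13.8 and 18.8 in PA2x (2.04 ± 0.41). Each group without ASM overlapped mock in the first, and in the second BABA replicates 2 and 3 stood over all mock libraries.

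Most of the 149 genes were set off from the other groups by much less than these. The gap between the lowest ASM and the highest other value had a median of 0.19 log2 units and was under 0.1 in 43 genes. That next highest library was a BABA library in 84 genes, PA2x in 35, mock in 18 and PA1x in 12. The genes nearest the limit of 0.6 were Os03g0597600 (0.604), Os04g0664800 (0.605) and Os02g0562600 (0.606) on the inside, with Os10g0444700 (0.596), Os07g0622200 (0.594) and Os04g0629300 (0.589) left outside. The number of genes was 255 without ASM replicate 1, of which 135 were among the 149. It was 223 without ASM replicate 2 and 178 without ASM replicate 3. With an ASM library left out, the lowest ASM value lies above the rest more easily.

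ACO1 (Os09g0451000) was the only member found in the pathway lists, and it encodes an ACC oxidase, the enzyme of the last step of ethylene synthesis. It stood at 70.6, 104 and 105 normalised counts with ASM, 14.4, 55.6 and 30.7 in mock, 30.7, 23.2 and 29.4 with BABA, 16.9, 33.2 and 22.6 in PA1x and 22.4, 25.5 and 10.7 in PA2x. Mock replicate 2 was the nearest library, and the groups without ASM overlapped. The ASM mean was 2.78 times the mock mean (1.62 ± 0.40 log2 units). PA1x did not pass against mock (-0.31 ± 0.40, limma adjusted p = 0.878), nor PA2x against PA1x (-0.33 ± 0.40, adjusted p = 0.703).

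**Figure D2:**
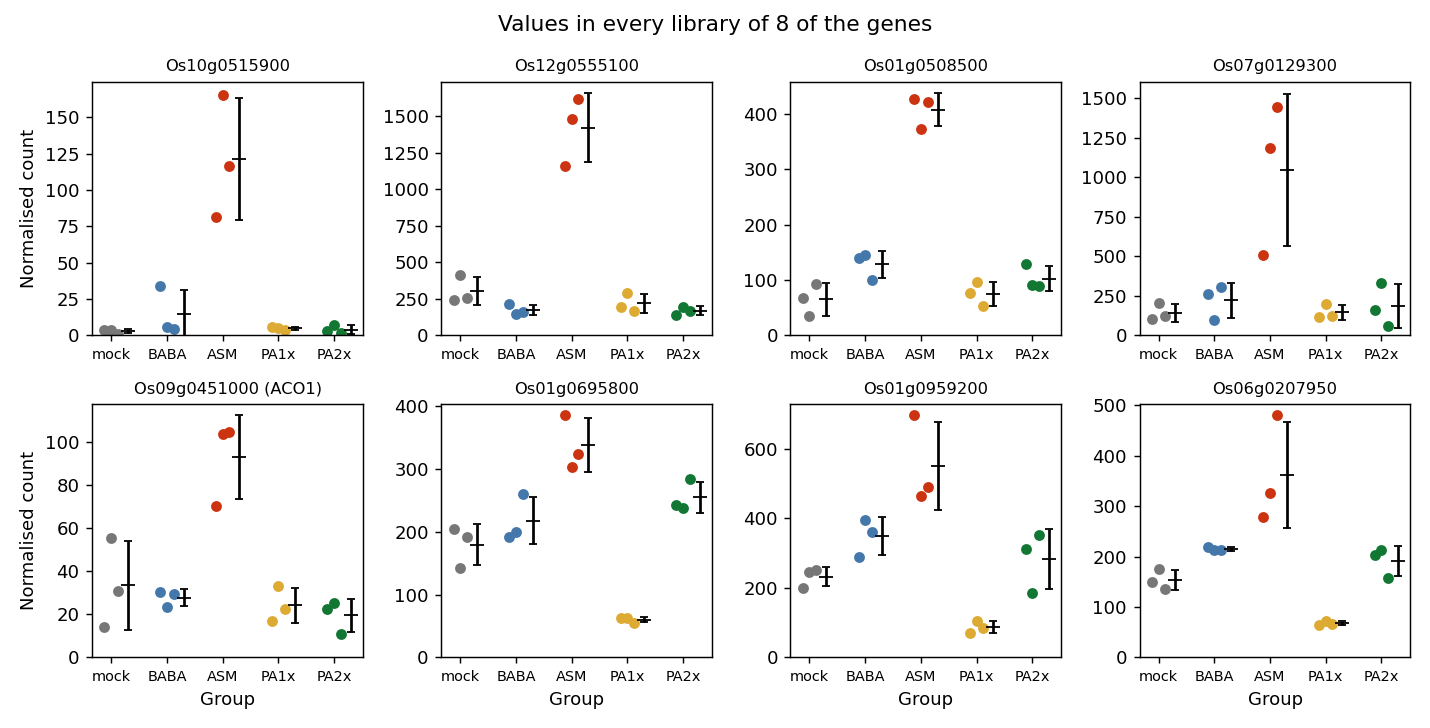
Normalised counts of 8 of the genes, 1 dot per library, with the group mean and SD beside the dots. In Os10g0515900 and Os12g0555100 the 3 ASM dots stand alone, while in Os01g0695800, Os01g0959200 and Os06g0207950 the PA1x dots lie under those of every other group.

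The pathway lists held 160 tested genes in 15 groups, and 28 of them were called higher with ASM than with mock and 2 lower, where 3.28% of all genes tested were called higher and 1.26% lower. The lists were written with earlier results of these data known, so their counts beside all genes are a description and no test. The calls were spread over several pathways of defence and of the phenylpropanoids. General phenylpropanoid genes were higher in 5 of 14 (median log2 difference 0.65), jasmonate genes in 7 of 23 (0.47), defence WRKY genes in 4 of 16 (0.42), salicylate signalling genes in 3 of 9 (0.16) and xenobiotic metabolism genes in 2 of 4 (0.81). Ethylene genes were higher in 2 of 10 (0.15), sugar starvation and anaerobic genes in 2 of 10 (-0.03), pathogenesis-related genes in 1 of 10 (0.33), abscisic acid genes in 1 of 9 (0.03) and stress NAC and DREB genes in 1 of 8 (0.32). None of the 12 diterpenoid phytoalexin genes (0.24), the 6 flavonoid and lignin genes (0.24) or the 5 antioxidant enzyme genes (-0.04) was called. In the iron deficiency list 1 of 11 was lower (-0.59) and in the nitrogen list 1 of 13 (-0.34), beside a median of -0.01 over all genes tested. Leaving out mock replicate 1 took the 28 to 15, and it was 18 without mock replicate 3 and 17 with the 6 libraries alone, and the count of 2 was 14 without ASM replicate 1 and 5 by DESeq2.

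Of those 28 genes, 21 were not highest in all 3 ASM libraries. The other 7 were, and 6 of them belonged to the 50 genes whose BABA and PA2x values all lay above mock too. These 6 were the transcription factor genes WRKY62 (Os09g0417800) and WRKY76 (Os09g0417600), OPR1 (Os06g0216300), an oxophytodienoate reductase, and the identifiers Os05g0322900, Os09g0518200 and Os02g0627100. Only ACO1 was left among the 149 genes.

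BABA and PA2x against mock were part of the choice and are again only described. With BABA 133 of the 149 genes had a positive difference (median 0.30, range -0.79 to 1.62 log2 units). The median over all genes tested was -0.009. All 3 BABA values were above all 3 mock values in 48 genes (background 8.24%) and below in 2 (background 8.09%). In PA2x 104 genes had a positive difference (median 0.16, range -1.10 to 1.01), beside a median of -0.004 over all genes tested. There, 12 of the 149 genes lay wholly above mock (background 8.42%) and 6 wholly below (background 7.32%).

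The single spray of piperonylic acid was not contrasted with mock in the choice of genes, although the choice used the mock values and kept PA1x under the lowest ASM value. In PA1x, 21 of the 149 genes (14.1%) fell against mock, where 3.13% of all 18316 genes tested fell and 4.01% of identifiers with a mean of at least 20. None rose by limma, where 0.399% of all genes did. At so small a share, a count of 0 among 149 genes does not set them apart. At an unadjusted p under 0.05 limma had 4 genes higher and 42 lower. The share of all genes at that limit was not taken, so those counts do not set the 149 genes apart. By edgeR and DESeq2, 0 genes were called higher too. The calls and the values without a call both leaned below mock. Differences were negative in 97 genes, with a median of -0.15 beside -0.003 for all genes tested. The median was -0.25 without PA1x replicate 2 and -0.23 without mock replicate 1. All 3 PA1x values lay below all 3 mock values in 39 genes (background 14.7%) and above them in 9 (background 8.55%). The count of 21 was 13 without PA1x replicate 1.

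The strongest fall was that of Os01g0695800. It had 205, 142 and 191 normalised counts in mock, 62.8, 62.0 and 55.2 in PA1x, 242, 238 and 283 in PA2x, 192, 199.7 and 260.3 with BABA and 386, 303 and 324 with ASM. The PA1x libraries lay far under all others and close to each other, and the PA2x libraries all exceeded mock. The difference between PA1x and mock was -1.55 ± 0.15 log2 units (limma adjusted p = 0.000134).

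Os01g0959200 had 201, 246 and 251 in mock, 71.7, 105 and 84.2 in PA1x, 312, 187 and 352 in PA2x, 289, 397 and 361 with BABA and 697, 466 and 492 with ASM. Again PA1x was the lowest group with no overlap, and PA2x replicate 2 lay under mock while its other libraries lay over it. The PA1x difference was -1.42 ± 0.22 (adjusted p = 0.00175). Os06g0207950 had 149, 176 and 136 in mock, 64.4, 72.3 and 67.0 in PA1x, 203, 212 and 157 in PA2x, 219, 213 and 213 with BABA and 279, 325 and 481 with ASM. Its PA1x values were all below mock (-1.16 ± 0.17, adjusted p = 0.0012) and its BABA values all above.

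In Os03g0318400 the mock libraries held 486, 691 and 474 normalised counts, PA1x 251, 303 and 236, PA2x 1027, 813 and 831, BABA 984, 987 and 672 and ASM 1214, 1057 and 1522. PA1x was under mock, PA2x over it, and ASM replicate 2 barely over the highest PA2x library. The PA1x difference was -1.05 ± 0.18 (adjusted p = 0.00369). Os12g0443000 had 19.8, 17.4 and 17.0 in mock, 4.03, 7.38 and 9.05 in PA1x, 17.3, 15.9 and 22.8 in PA2x, 21.0, 16.4 and 18.7 with BABA and 41.8, 43.3 and 54.5 with ASM. Mock, BABA and PA2x overlapped there, with PA1x under and ASM over them (-1.34 ± 0.26 for PA1x, adjusted p = 0.00789).

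The other 16 genes that fell in PA1x had differences of -1.03 to -0.54. In all 21 the PA1x and mock values did not overlap, which adds little to the calls because both rest on the same values. Of the 21, 13 were called whichever of the 6 libraries was left out and 8 lost the call with at least 1 left out, among them Os06g0207700 (largest adjusted p = 0.124).

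The PA2x and PA1x groups were compared to see whether an additional spray on day 7 went with other levels of these genes. Both tests share the PA1x libraries, so their counts do not stand apart from each other. The choice of genes also used the PA2x values against mock and held PA2x and PA1x under the lowest ASM value, so the counts are not independent of it. In PA2x, 48 of the 149 genes (32.2%) rose against PA1x, where 8.31% of all genes tested rose and 10.4% of identifiers with a mean of at least 20. In the other direction 3 genes (2.01%) fell, near the 2.96% of all genes tested. The median difference was 0.29 log2 units, beside -0.02 for all genes tested, and 102 genes had a positive value. All PA2x values lay above all PA1x values in 59 genes (background 18.1%) and below them in 9 (background 13.1%).

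**Figure D3:**
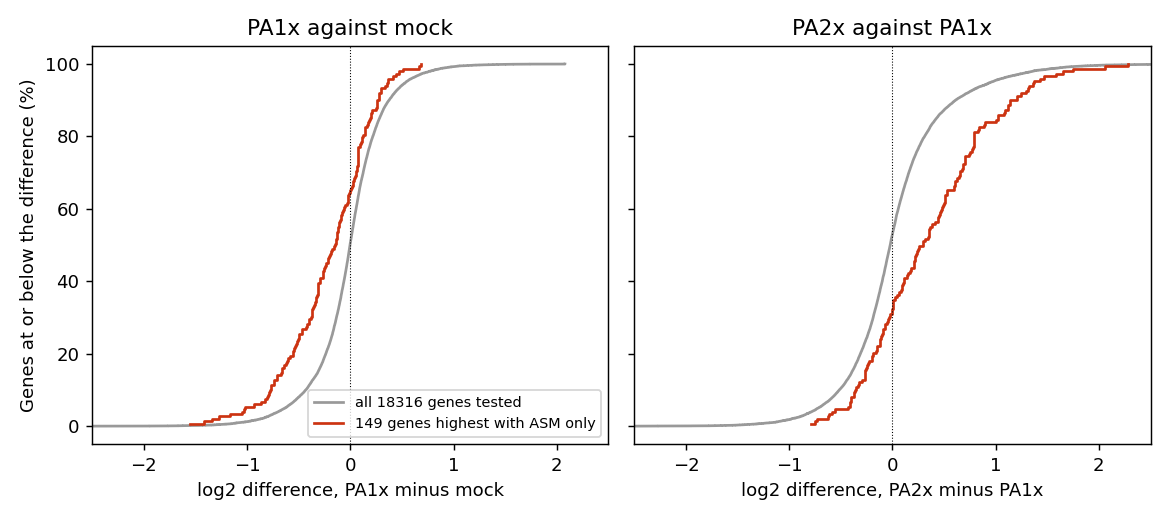
Share of genes at or below each log2 difference, for the 149 genes (red) and all 18316 genes tested (grey), in PA1x against mock and in PA2x against PA1x. The red curve lies left of the grey one in the first panel (medians -0.15 and -0.003) and right of it in the second (0.29 and -0.02); the comparisons share the PA1x libraries.

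Os12g0242100, whose values are given above, rose most in PA2x against PA1x, by 2.28 ± 0.45 log2 units (limma adjusted p = 0.00242), with PA1x libraries at or near the floor. The rise was 2.06 ± 0.15 in Os01g0695800 (adjusted p = 6.5e-07), 1.75 ± 0.18 in Os03g0318400 (adjusted p = 9.62e-06) and 1.66 ± 0.22 in Os01g0959200 (adjusted p = 8.14e-05). In these 4 genes no PA2x value overlapped PA1x.

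Os05g0583000 completed the first 5. It had 32.2, 34.7 and 20.8 normalised counts in PA1x, 82.5, 87.0 and 93.9 in PA2x, 44.0, 80.7 and 41.8 in mock, 100.03, 76.6 and 69.5 with BABA and 158, 138 and 172 with ASM. PA1x lay under all other groups, and every PA2x value lay over the mock values. The rise from PA1x to PA2x was 1.58 ± 0.24 (adjusted p = 0.000248), while PA1x against mock did not pass (-0.87 ± 0.24, adjusted p = 0.0563), though it did without mock replicate 3 (adjusted p = 0.0370) and by DESeq2 (0.0217). The other 43 genes rose by 0.46 to 1.46, and 32 of the 48 were called whichever library was left out, while 16 lost the call with at least 1 left out.

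The 3 genes that fell from PA1x to PA2x were Os02g0668500, Os09g0538400 and Os05g0200700. Os02g0668500 had 47.5, 55.3 and 76.9 normalised counts in PA1x, 34.6, 32.9 and 36.2 in PA2x, 47.6, 46.9 and 66.6 in mock, 58.1, 61.5 and 73.1 with BABA and 90.5, 92.4 and 85.1 with ASM. Its PA2x libraries were the lowest of the 15 (-0.75 ± 0.18 against PA1x, adjusted p = 0.0133). The other pair differed less from mock in PA2x. Os09g0538400 had 36.3, 34.7 and 33.5 in PA1x, 18.3, 17.0 and 28.2 in PA2x, 33.3, 20.8 and 23.5 in mock, 32.3, 23.2 and 25.8 with BABA and 42.8, 42.4 and 41.5 with ASM (-0.73 ± 0.22, adjusted p = 0.0463). Os05g0200700 had 106, 107 and 95.1 in PA1x, 75.3, 56.2 and 69.8 in PA2x, 77.3, 93.8 and 62.6 in mock, 95.2, 108 and 74.0 with BABA and 109, 133 and 135 with ASM (-0.62 ± 0.18, adjusted p = 0.0314). In both of these PA1x lay over mock, and PA2x overlapped mock. The count of 3 was 0 without PA2x replicate 2 or PA1x replicate 3 and 1 without PA1x replicate 1 or 2.

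Among the 50 genes whose BABA and PA2x values all lay above mock too, 17 fell and 2 rose in PA1x against mock (median -0.36), where 3.13% and 0.399% of all genes tested did. In PA2x against PA1x 42 of them rose (median 0.88), where 8.31% of all genes did. Their PA2x values against mock were fixed by the choice, and the difference between these 50 and the 149 genes was not tested.

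Some of the 149 genes lay next to each other in the order of the identifiers, which the choice did not use. Among identifiers with a mean of at least 20 there were 7 runs of neighbours with 15 genes in all, and among all rice identifiers 3 runs with 7 genes. Whether these counts are high for 149 genes was not tested. The sources used here give neither strand nor annotation. Neighbouring genes that overlap or are near copies may share reads.

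Os06g0207700 and Os06g0207950 moved alike. Os06g0207700 had 141, 156 and 138 normalised counts in mock, 90.2, 107 and 87.8 in PA1x, 189, 151 and 156 in PA2x, 153, 144 and 172 with BABA and 219, 268 and 316 with ASM. PA1x was its lowest group, as in its neighbour (-0.61 ± 0.14 against mock, limma adjusted p = 0.0239). PA2x against PA1x passed in both, at 0.79 ± 0.14 in Os06g0207700 (adjusted p = 0.00137) and 1.46 ± 0.17 in Os06g0207950 (adjusted p = 2.51e-05).

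Os12g0556200 and Os12g0556300 also changed together. Os12g0556200 had 610.2, 603 and 769 in mock, 416, 406 and 410.1 in PA1x, 758, 815 and 943 in PA2x, 709.9, 725 and 1001 with BABA and 1103, 1287 and 1312 with ASM. Os12g0556300 had 72.8, 68.6 and 90.7 in mock, 42.7, 44.3 and 43.5 in PA1x, 87.6, 91.3 and 85.9 in PA2x, 119, 95.7 and 149.7 with BABA and 178, 180.0 and 223 with ASM. In both, the PA1x libraries were nearly equal and the lowest, and BABA replicate 3 was the highest outside ASM. Both fell in PA1x (-0.68 ± 0.14 and -0.81 ± 0.16, adjusted p = 0.0104 and 0.00859) and rose from PA1x to PA2x (1.02 ± 0.14 and 1.00 ± 0.16, adjusted p = 9.82e-05 and 0.00043).

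The longest run held Os12g0431100, Os12g0431300 and Os12g0431700. With ASM they stood at 138, 100.12 and 115, at 262, 281 and 276 and at 870.2, 769 and 789 normalised counts, and in mock at 43.1, 41.7 and 47.0, at 117, 129 and 136 and at 389, 340.4 and 482. Their PA1x values were 45.1, 50.2 and 65.2, then 114, 158 and 144, then 419.7, 538 and 441. None of the 3 passed in PA1x against mock (0.26, 0.11 and 0.21) or in PA2x against PA1x (-0.37, 0.05 and -0.09), except that Os12g0431100 was lower in PA2x than in PA1x without PA2x replicate 3 (limma adjusted p = 0.0356). ASM stood over the rest in each of them, and the PA1x differences from mock were positive, unlike those of both pairs above.

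Os04g0142400 and Os04g0149400 differed from mock by 1.30 ± 0.21 and 1.31 ± 0.12 log2 units with ASM, Os03g0405500 and Os03g0405900 by 1.57 ± 0.19 and 0.74 ± 0.11. For Os10g0537800 and Os10g0538200 these differences were 1.24 ± 0.17 and 0.90 ± 0.18, and for Os04g0581000 and Os04g0581100 they were 1.01 ± 0.22 and 3.30 ± 0.62. Neighbours could thus be close to each other in size or far apart. None of these 8 genes passed in PA1x against mock. Os04g0149400 (0.53 ± 0.12, adjusted p = 0.00887) and Os10g0537800 (0.66 ± 0.17, adjusted p = 0.0171) rose in PA2x against PA1x, the latter with a largest adjusted p of 0.101 when a library was left out.

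**Figure D4:**
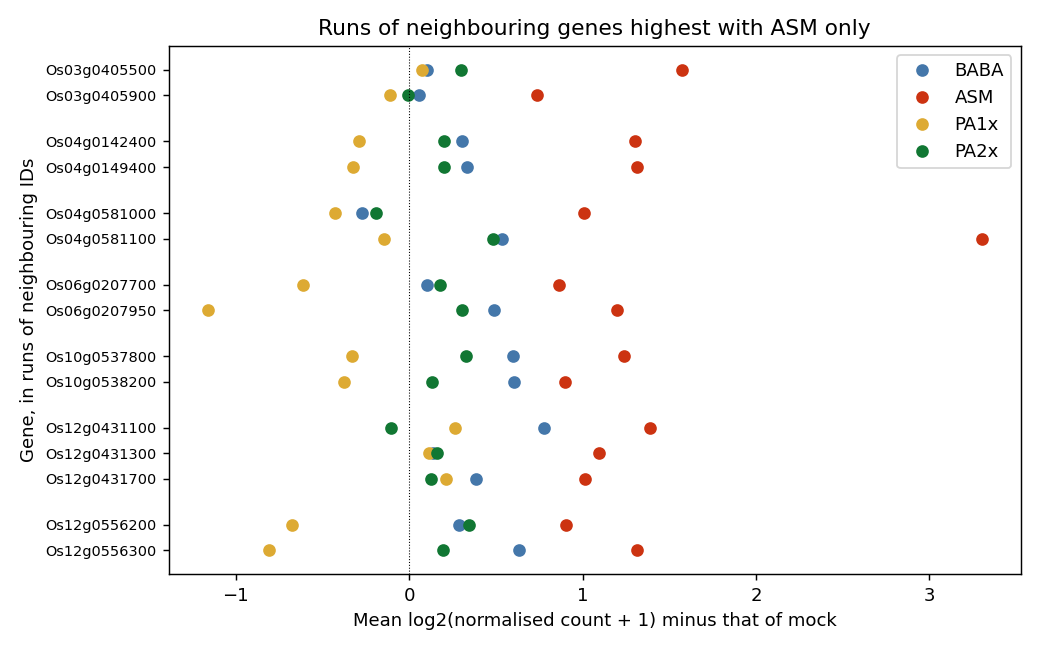
Group means of log2(normalised count + 1) minus the mock mean for the 15 genes in 7 runs of neighbouring identifiers. ASM is the rightmost point in every row by the choice of genes, and PA1x lies left of 0 in both genes of the Os06g0207700 and Os12g0556200 pairs.

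A pair of list genes lay directly beside genes with large differences, which was noticed after the values were seen. Os07g0129300 is next to Os07g0129200, a pathogenesis-related list identifier at 7815 ± 2491 normalised counts with ASM and 3476 ± 1185 in mock (1.17, adjusted p = 0.0792). Os12g0555100 is next to Os12g0555000 of the same list, at 17047 ± 8645 with ASM and 17249 ± 8291 in mock (-0.05, adjusted p = 0.978). Neither list gene passed, and their replicates spread widely.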

How the data were processed

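QuantSeq 3′ libraries were made from 2 µg of root RNA, per the labels' protocols. The authors deposited a signal, the reads of each gene over a size factor of its library. Per the submitters' processing notes, the tools included DESeq2, STAR 2.6.1d, Trimmomatic 0.38 and FastQC 0.11.8. Genome build, annotation and strand were not given in the sources used here. Whole reads were recovered from the step between low values, with 100% whole within 0.1 in each library. The step of ASM replicate 1 is so close to 1 that the automated unit check did not take it as recovered. Its reads still entered the count tools, which were used only as alternatives.

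The genes were chosen by the rule on the deposited values. The members and all lists were chosen with earlier results of these data known. PA1x was tested against mock and PA2x against PA1x with limma 3.58.1 with a trend (R 4.3.3), two-sided, using log2 values with a pseudocount of 1, the 18316 genes whose mean reached 5, all 15 libraries and group as the sole term. Adjustment was by Benjamini-Hochberg at 0.05. Fold changes on this scale understate changes of low genes. Alternatives were edgeR 4.0.16 and DESeq2 1.42.0 on recovered reads, other pseudocounts and filters, only the 6 libraries compared, a replicate block and each library left out. The tests were checked on simulated data. P-values measure the spread between plant pools, and floors of 3 reads cover counting error only.

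Named genes were the list members, the 10 largest differences, the 5 largest gaps, the 5 highest and 5 lowest called genes per test, runs of neighbours and the genes nearest the limit of 0.6. Lists pair 193 identifiers with names from general knowledge, and 190 were in the file. The RefSeq table (ASM3414082v1) holds 1 identifier of the file and 0 of the 149, so names are printed only where a namesake lay on the same chromosome (116 of 193).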

Additional observations from a re-analysis of the deposited data

How the results depend on the processing

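The number of genes was 69 with a difference of at least 1 and ran from 128 to 255 with libraries left out, the highest without ASM replicate 1. It was 150 with TMM factors (145 shared) and 157 when PA1x columns were not used (all 149 among them). With those 157 genes, 1 was called higher and 21 lower in PA1x against mock. That lower count was 21 by edgeR and 24 by DESeq2, and ran from 13 to 22 with libraries left out, while the higher count stayed at 0. In PA2x against PA1x the higher count ran from 38 to 45 and the lower count from 0 to 4. Both medians kept their sign, at -0.25 to -0.13 and 0.22 to 0.35. Genes called higher with ASM ran from 78 to 114 with libraries left out. List genes called higher with ASM were 17 with the 6 libraries alone and ran from 15 to 33, and those called lower were 5 by DESeq2 and ran from 2 to 14. Neighbouring genes were 7 among all rice identifiers. Leaving out an ASM library makes the rule for the number of genes easier to meet. Otherwise the cause of these shifts was not tested. For the named genes whose tests are printed, 402 alternative values kept their call or the lack of one. A call was lost with the same direction in 22 values of 5 genes: the 3 genes lower in PA2x than in PA1x, Os06g0207700 in PA1x against mock and Os10g0537800 in PA2x against PA1x. A call was gained in 3 values, of Os05g0583000 and Os12g0431100. The sign turned in 7 values of results that did not pass. With libraries left out, ACO1 ran from -0.80 to 0.14 in PA1x against mock, above 0 without mock replicate 2, and from -0.56 to 0.030 in PA2x against PA1x, above 0 without PA2x replicate 3. In PA2x against PA1x, Os12g0431300 ran from -0.089 to 0.25, below 0 without PA2x replicate 1 or 3 or PA1x replicate 1, and Os12g0431700 from -0.31 to 0.17, above 0 without PA2x replicate 2 or PA1x replicate 2.

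With the replicate block the counts were 20 lower and 0 higher in PA1x against mock, and 48 higher and 3 lower in PA2x against PA1x. Labels do not say that a number marks a shared batch, and the numbers were not taken as pairs because not every same-numbered pair correlated over 0.1. Those of mock and PA1x correlated at 0.0998, 0.224 and 0.283, each library best with its own number, a hint from the data and not the design. Those of PA1x and PA2x correlated at 0.0135, 0.0487 and 0.245, and over all groups the range was -0.34 to 0.40, with the negative end in pairs with ASM. Depth limits the low genes most: 3 reads are 1.96 to 4.84 normalised counts, and 3 of the 149 genes reached that level in at least 1 library.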

Other observations

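The 149 genes did not share 1 order of the ASM libraries. ASM replicate 1 was the highest of its group in 57 genes, the lowest in 65 and between the others in the rest, and over all 14025 identifiers with a mean of at least 20 it was the highest in 37.8% and the lowest in 37.3%. In the 57 genes, mock replicate 2 was the lowest mock library in 28, PA2x replicate 3 the highest of its group in 35 and PA2x replicate 2 the lowest in 35. In the 65 genes, mock replicate 2 was the highest mock library in 37. PA2x replicate 3 was the lowest of its group there in 31 and PA2x replicate 2 the highest in only 23 (35.4%). In the 27 genes with ASM replicate 1 between the others, mock replicate 2 was the highest mock library in 15. That share (55.6%) was close to the 56.9% of the 65 genes. Shares of these mock and PA2x orders over all identifiers were not taken. Over all genes tested a different measure, the correlation, leaned in the same directions, so whether the 149 lean more or less is not known. There, deviations of ASM replicate 1 from its group mean correlated at -0.26 with those of mock replicate 2. With PA2x replicate 3 the correlation was 0.32 and with PA2x replicate 2 it was -0.33. The split by ASM replicate 1 was made after the values were seen and was not tested.

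By chromosome, as given in the identifiers, 15 of the 149 genes (10.1%) lay on chromosome 12, which holds 5.06% of the identifiers with a mean of at least 20. Chromosome 6 had 18 (12.1% beside 7.70%). Chromosome 8 had 5 (3.36% beside 6.57%), chromosome 5 had 7 (4.70% beside 8.61%) and chromosome 2 had 13 (8.72% beside 11.9%). Of the 15 on chromosome 12, 5 lay in the runs of neighbours described above, and no test was made of these shares.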
